A study of Zea mays with 6 samples.

Results

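Nested loci are pairs of annotated transcribed loci in which the shorter, inner locus lies wholly within the span of a longer, outer locus. A total of 181 such pairs was kept from RNA sequencing of pooled maize (Zea mays) kernels at 15 days after pollination. They are made of 180 inner and 178 outer loci, 357 loci in all because 1 locus is the outer of one pair and the inner of another, out of 45736 loci in the files. Kernels of the defective kernel mutant dek42 (allele dek42-ref in the sample titles; replicates 1, 2 and 3, n = 3) were compared with wild-type kernels (WT; replicates 1 and 3, n = 2). WT replicate 2 is labelled as well and was not analysed here. The labels give no genetic background, no number of kernels per pool and no word on separate plants or ears. The p-values below therefore reflect only the spread between these libraries, which may be technical. A whole kernel holds endosperm, embryo and maternal tissue. Rows carry positions only, on build B73 RefGen_v4. Loci are accordingly named by chromosome, start and end, and kernel marker genes, exons, introns and UTRs were not analysed here.

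Genes inside other genes are common in plant genomes. An inner gene may sit in an intron of its host, run on the opposite strand through its exons, or be an annotated fragment or transposable element that shares exonic sequence with it. The product of Dek42 binds RNA and acts in pre-mRNA splicing, and dek42 kernels are impaired in development. The pairs bear on whether an inner locus keeps its own level or follows its host when the mutant is set against WT. Short-read quantification has to divide reads between loci that share bases, and the sources used here do not say how this was done or whether strand was used. How far reads of one locus were counted for the other cannot be told apart from its own level, and every value below carries that uncertainty.

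Pairs were taken on chromosomes 1 to 10, leaving out chromosome 6 from 12 to 15 megabases, with an outer span of at most 30000 bases and no repeated name. Of 1618 such pairs, 181 had at least 1 FPKM at both loci in at least 2 of the 5 libraries and were kept. FPKM is a fragment count scaled to transcript length and to the number of mapped fragments in the library. In 806 pairs only the outer locus passed this filter, in 50 only the inner locus, and in 581 neither. Of the inner loci fewer passed: 228 of 1577 distinct inner loci passed (14.5%), against 834 of 1396 outer loci (59.7%) and 44.5% of all loci in the same chromosome regions. Of the inner loci, 921 were listed at 0 in every library (58.4%), compared with 285 outer loci (20.4%) and 31.0% of all loci there. At the filter's edge, the pairs just inside had 1.00 and 1.03 FPKM as the second highest value of their lower locus, and the pairs just outside had 0.987 and 0.980 FPKM. The longest outer loci kept spanned 29928 and 28013 bases, and the next beyond the limit spanned 31041 and 31190 bases. The filter itself favours loci that are high in dek42, which has 3 of the 5 libraries. Both WT libraries were under 1 FPKM for 31 inner and 18 outer loci, while 1 inner and 0 outer loci had no dek42 library at 1 FPKM. The 31 and 18 loci passed through dek42 libraries alone, and the 1 inner locus through WT libraries alone. For all of these a difference is in part set by the filter. Their counts, p-values and repeated calls below are a description with no independent support.

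The inner loci were short and lay anywhere in their hosts. Their median span was 946 bases (174 to 15996), against 5448 bases (405 to 29928) for the outer loci and 3823 bases for all 20327 loci that passed the filter. An inner locus covered a median of 19.3% of the outer span (1.29% to 99.97%). Its centre fell in the first, middle and last part of the outer span, cut into equal parts by coordinate, in 54, 65 and 62 pairs. Only 7 pairs shared a start and 9 an end, and in 62 pairs the inner locus lay within 100 bases of an end. The strand of the loci is not in the files, so these positions do not say which end is the promoter. Chromosome 2 held 28 pairs, chromosomes 1 and 5 held 25 each, and chromosome 7 held 5, the fewest.

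**Figure D1:**
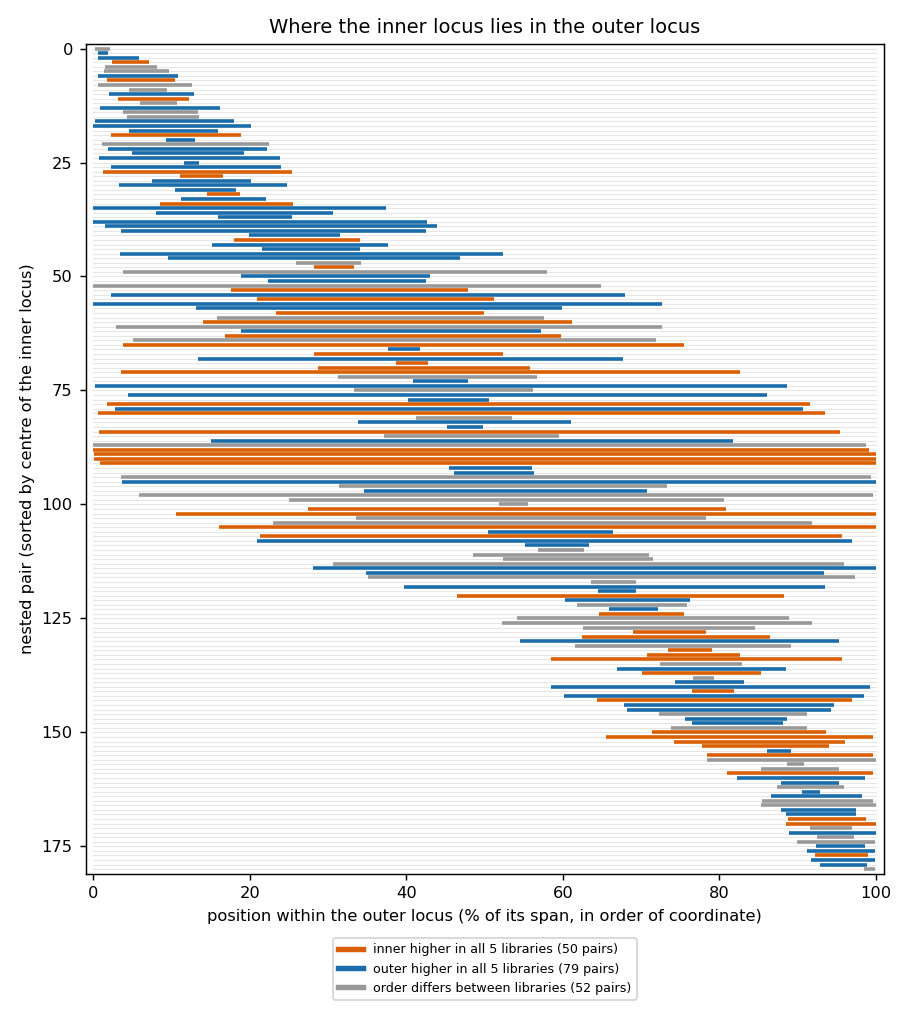
Position of the inner locus (coloured bar) within its outer locus (grey line, scaled to 100% of its span) for all 181 pairs, 1 pair per line, sorted by the centre of the inner locus. Colours mark which locus had the higher FPKM in all 5 libraries: the inner in 50 pairs, the outer in 79, and neither in 52.

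Inner loci were more often below than above their hosts, with wide differences in both directions. The outer locus had the higher FPKM in all 5 libraries in 79 pairs (43.6%) and the inner locus in 50 pairs (27.6%). In the other 52 pairs the order differed between libraries. The median inner locus had a mean of 4.52 FPKM in dek42 and 2.91 FPKM in WT, and the median outer locus 8.03 FPKM in dek42 and 4.78 FPKM in WT. The median difference in level, inner minus outer, was -0.57 in dek42 and -0.58 in WT on the log2(FPKM + 1) scale. Neighbouring loci that passed the filter and do not overlap (19534 consecutive pairs) had medians of -0.29 in dek42 and -0.39 in WT for the shorter minus the longer locus. Across the 181 pairs the log2 levels of inner and outer locus correlated with Pearson r = 0.15 and Spearman rho = 0.07, against r = 0.06 and rho = 0.04 in neighbouring pairs. These correlations run across pairs that share libraries and are a description. Inner loci of up to 500 bases had a median difference of 0.04 (46 pairs) and lay on both sides of their hosts, above in all libraries in 16 pairs and below in all in 11. Those over 1000 bases had a median difference of -0.87 (86 pairs), above in 26 and below in 46. The median over all pairs and libraries, -0.58, moved with the settings: it was -0.93 with a pseudocount of 0.1, -1.15 with no filter, -0.25 with a filter of 5 FPKM and -0.32 with outer spans of at most 10000 bases. The neighbouring pairs had -0.32 as deposited and were not recomputed under these settings.

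**Figure D2:**
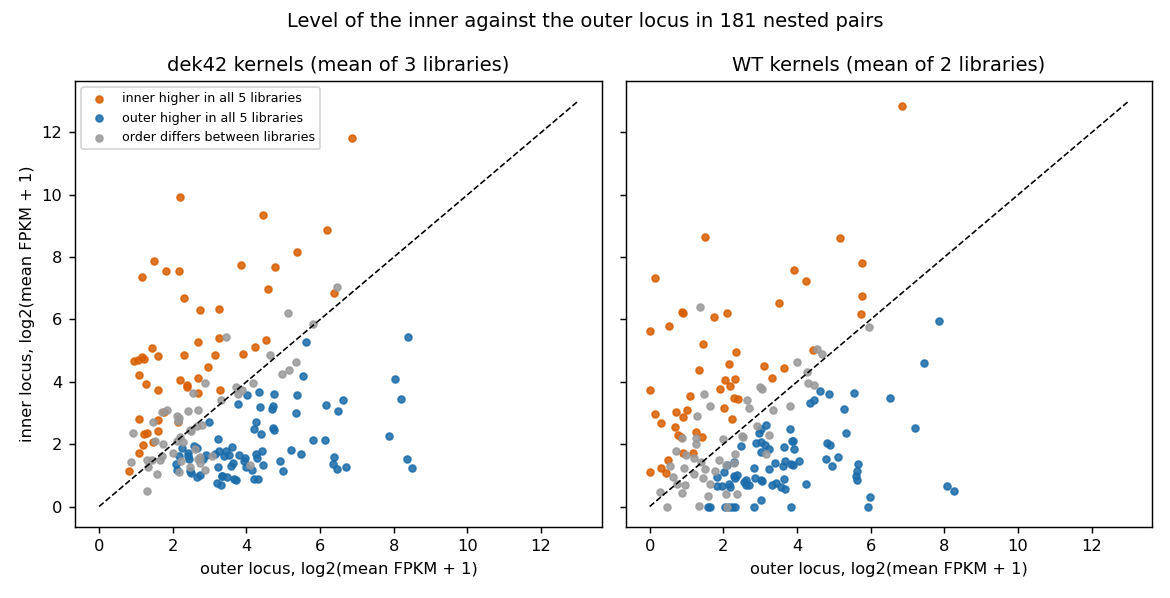
Level of the inner locus (vertical axis) against the outer locus (horizontal axis), each as log2(mean FPKM + 1), in dek42 (left, 3 libraries) and WT (right, 2 libraries); each point is a pair, the dashed line marks equality, and colours are as in the position map. Pairs spread on both sides of the line in both genotypes, with a median inner minus outer difference of -0.57 in dek42 and -0.58 in WT.

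In some pairs the inner locus was by far the more abundant. The most abundant inner locus spans 174 bases inside an outer locus of 405 bases on chromosome 2, starting at 220153532 and ending at 220153706. It had 3696, 4571 and 2561 FPKM in dek42 and 3827 and 10947 FPKM in WT, so WT replicate 3 was the highest and the genotypes overlapped. Its host had 117, 143 and 89.9 FPKM in dek42 and 85.6 and 143 FPKM in WT. On the log2(FPKM + 1) scale, inner minus outer level was lower in every dek42 library than in both WT libraries. This difference between genotypes was -0.93 (SE 0.25) and was not called in the test of pairs described further below (limma adjusted p = 0.059). Neither locus passed the test described below (limma adjusted p = 0.20 for the inner and 0.90 for the outer locus). Without WT replicate 3 the adjusted p of the inner locus was 0.82, and it was called in 1 of the 5 fits that left out a library.

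On chromosome 6, the inner locus from 58858226 to 58859863 had 953, 965 and 979 FPKM in dek42 and 359 and 433 FPKM in WT, 2.44-fold higher in dek42 by mean FPKM. Its host from 58857758 to 58859957, of which it covers 74.4%, had 3.32, 3.75 and 3.61 FPKM in dek42 and 1.35 and 2.28 FPKM in WT. All dek42 libraries lay above both WT libraries at both loci, and the inner level was 258-fold the outer level over all libraries, the highest of the 181 pairs on the log2(FPKM + 1) scale. Both rose as deposited (limma adjusted p = 0.0032 for the inner and 0.047 for the outer locus). After median-ratio scaling, defined below, neither passed (adjusted p = 0.062 and 0.45), and the outer call was also lost without dek42 replicate 1, 2 or 3 (0.077, 0.11 and 0.12) or WT replicate 1 (0.20).

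Next in this order was the pair on chromosome 6 with the inner locus from 161892149 to 161896354, which covers 94.6% of its host. It had 183, 188 and 188 FPKM in dek42 and 174 and 146 FPKM in WT. The host had 2.12, 4.97 and 0.431 FPKM in dek42, and 0.211 FPKM in WT replicate 3, with a value above 0 but under 0.001 FPKM in WT replicate 1. The inner level was steady while the host, whose span it almost wholly covers, was low and uneven. How many transcribed bases both loci share is not known, as exons were not analysed. Neither passed the test (limma adjusted p = 0.22 for the inner and 0.079 for the outer locus).

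At the other end, abundant hosts held loci near the filter. The outer locus at 111339068 to 111342913 on chromosome 9 had 339, 376 and 372 FPKM in dek42 and 290 and 327 FPKM in WT, and its inner locus of 834 bases had 1.18, 1.98 and 0.916 FPKM in dek42 and 0.670 and 0.177 FPKM in WT. The outer locus at 96117839 to 96119368 on chromosome 8 had 276, 377 and 333 FPKM in dek42 and 241 and 292 FPKM in WT. The inner locus there covers 76.1% of the host, yet had 1.38, 1.48 and 2.85 FPKM in dek42 and 0.716 and 0.449 FPKM in WT. Hosts were thus 346-fold and 221-fold above the inner loci in mean FPKM over all libraries. None of these 4 loci passed the test (limma adjusted p of 0.059 to 0.23). The next abundant host, on chromosome 6 from 159654813 to 159659232, had 268, 322 and 292 FPKM in dek42 and 189 and 277 FPKM in WT. Its inner locus of 450 bases swung between libraries of the same genotype, with 23.0, 3.25 and 3.64 FPKM in dek42 and 120 and 2.88 FPKM in WT. Neither passed (limma adjusted p = 0.42 for the inner and 0.18 for the outer locus).

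Inner loci were less reproducible than their hosts. The median residual SD within genotypes on the log2(FPKM + 1) scale was 0.44 for inner loci, 0.25 for outer loci and 0.23 for the 18873 tested loci of the same regions that took part in no nesting. At least 1 FPKM in one library with 10-fold less in another of the same genotype was found for 22 inner loci among the dek42 libraries (12.2%) and 25 between the WT libraries (13.9%). For outer loci the figures were 4 (2.25%) and 5 (2.81%), and for loci in no nesting 1.84% and 1.83%. Inner loci were also the less abundant, and the part of level in these shares was not tested. The deviations of an inner locus and its host from their genotype means had correlations across pairs between -0.04 and 0.08 in the 5 libraries. Neighbouring pairs had 0.01 to 0.03. In the 36 pairs with over 50% of the host covered, the correlations were 0.32, -0.03 and -0.02 in dek42 replicates 1, 2 and 3. In WT the correlation of these pairs was -0.33. Pairs with less of the host covered had values between -0.08 and 0.10. Both WT libraries give the same value, because 2 deviations from their own mean mirror each other. Each value describes pairs of loci that share a library.

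Values just above 0 were confined, among the loci examined, to loci that overlap another. Of the 180 inner loci, 17 (9.44%) had a value above 0 but under 0.001 FPKM in some library, as did 6 of the 178 outer loci (3.37%). Among tested loci in no nesting, 7 of the 824 that overlap another locus in part had such a value (0.850%), and 0 of the 18049 that overlap no other locus. An exact 0 in some library was listed for 25 inner loci (13.9%), 4 outer loci (2.25%) and 838 loci in no nesting (4.44%). The bound of 0.001 FPKM was chosen after the values were seen.

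The outer locus on chromosome 9 from 27179018 to 27181458 shows how far a host could swing. It had 38.9, 1.13 and 23.1 FPKM in dek42 and 106 and 0.302 FPKM in WT, with full overlap of the genotypes and no call (limma adjusted p = 0.97). Its inner locus, which covers 71.6% of it, was steady at 658, 603 and 679 FPKM in dek42 and 185 and 267 FPKM in WT. That locus was 2.86-fold higher in dek42 by mean FPKM, with no overlap, and rose as deposited (limma log2 change 1.53, SE 0.20, adjusted p = 0.0030) and after median-ratio scaling (adjusted p = 0.041), though not after quantile normalization (0.089).

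More inner and outer loci rose than fell in dek42, and so did all loci. The test was limma on log2(FPKM + 1) over all 20327 loci, two-sided, with Benjamini-Hochberg adjustment over all of them and a threshold of 0.05. Of the 180 inner loci, 62 rose in dek42 (34.4%) and 8 fell (4.44%). Of the 178 outer loci, 69 rose (38.8%) and 2 fell (1.12%). Of all loci tested, 39.2% rose and 2.29% fell. The median log2 change was 0.65 for inner loci and 0.55 for outer loci, against 0.54 for all tested loci. A change of at least 1 on the log2 scale, in either direction, was reached by 56 called inner loci (31.1%) and 31 called outer loci (17.4%), against 19.8% of all loci tested. Of the loci that rose, both WT libraries were under 1 FPKM for 16 inner loci (25.8%) and 7 outer loci (10.1%), against 12.1% among all loci that rose. In median-ratio scaling, each library is divided by its median ratio to a geometric mean library. After it, 24 inner loci rose (13.3%) and 10 fell (5.56%), and 12 outer loci rose (6.74%) and 8 fell (4.49%), against 7.96% and 8.00% of all loci tested. On this scale the medians were 0.18 for inner, 0.03 for outer and 0.02 for all loci. Fewer outer loci rose as deposited without dek42 replicate 2 (35), dek42 replicate 3 (34) or WT replicate 1 (39), and 4 inner loci fell without WT replicate 1.

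Both loci rose in 27 pairs (14.9%), near the 15.7% of neighbouring pairs. In 35 pairs only the inner locus rose (19.3%) and in 43 only the outer (23.8%), against 22.4% for the shorter and 22.5% for the longer locus of neighbouring pairs. In 10 of the 27 pairs at least 1 locus was under 1 FPKM in both WT libraries. In 7 pairs only the inner locus fell, in 2 only the outer fell, in 1 the inner fell and the outer rose, and in 66 neither was called. On the median-ratio scale both loci rose in 3 pairs (1.66%), only the inner rose in 21 (11.6%) and only the outer in 10 (5.52%), against 0.650%, 7.96% and 5.23% of neighbouring pairs in the same order. Only the inner fell in 10 pairs and only the outer in 8. Classes with a fall, and pairs with neither locus called, were not counted in neighbouring pairs on either scale. Across the 181 pairs the log2 changes of inner and outer locus correlated with Pearson r = 0.21 and Spearman rho = 0.24, against r = 0.08 and rho = 0.04 in neighbouring pairs. The changes had the same sign in 72.4% of nested and 73.4% of neighbouring pairs as deposited, and in 59.1% and 51.6% after median-ratio scaling. By share of the host covered, r was 0.10 for inner loci covering up to 10% (51 pairs), 0.30 for those covering over 10 to 50% (94 pairs) and 0.20 for those covering over 50% (36 pairs). These values describe pairs that share libraries, and pairs are not replicates.

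**Figure D3:**
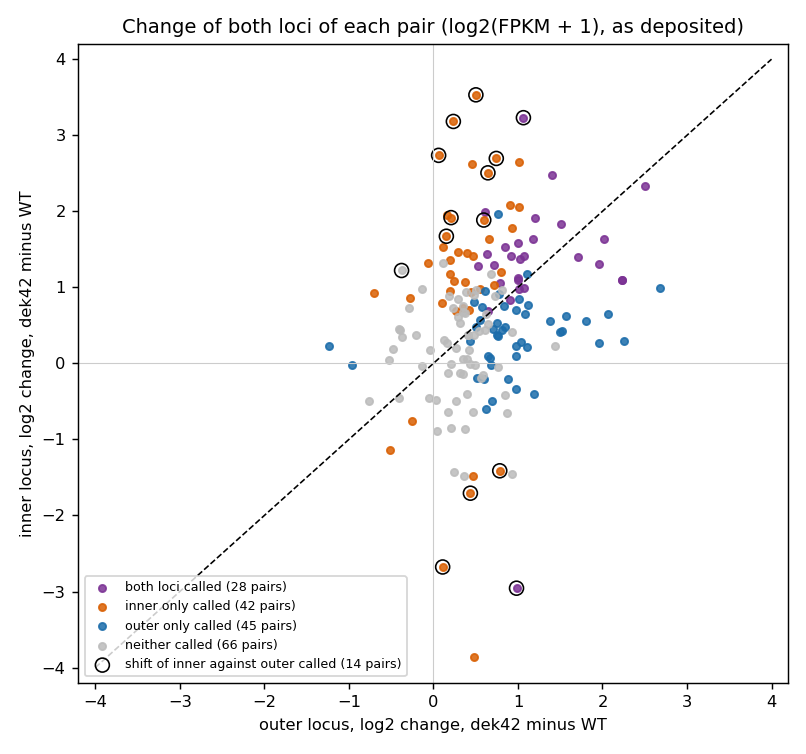
Log2 change in dek42 minus WT of the inner locus (vertical axis) against that of the outer locus (horizontal axis) for 181 pairs on the log2(FPKM + 1) scale as deposited; colours show which loci passed the limma test, circles the 14 pairs with a called difference between both changes, and the dashed line equal change. Inner changes run from -3.86 to 3.53, and 27 of the 28 pairs with both loci called have both higher in dek42.

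The 3 pairs in which both loci rose on both scales lie on chromosomes 5, 7 and 10. On chromosome 5 the inner locus from 86316480 to 86317285 had 45.6, 27.3 and 39.8 FPKM in dek42 and 4.88 and 8.60 FPKM in WT (5.57-fold, limma log2 change 2.33, SE 0.29, adjusted p = 0.0028). Its host, from 86316066 to 86317574, had 6.55, 3.52 and 6.17 FPKM in dek42 and 0.0210 and 0.201 FPKM in WT (limma log2 change 2.50, SE 0.29, adjusted p = 0.0025), and passed the filter through dek42 alone. The genotypes did not overlap at either locus, and the changes of both loci were close, with a difference of -0.17 (SE 0.28, limma adjusted p = 0.71).

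On chromosome 10 the inner locus from 116549872 to 116550361 had 327, 249 and 277 FPKM in dek42 and 105 and 77.8 FPKM in WT (3.11-fold, limma log2 change 1.63, SE 0.19, adjusted p = 0.0025). Its host, from 116549726 to 116550765, had 38.4, 40.1 and 43.4 FPKM in dek42 and 15.2 and 5.46 FPKM in WT (3.94-fold, limma log2 change 2.02, SE 0.36, adjusted p = 0.0072). Here too all dek42 libraries lay above both WT libraries. The third pair, named after its values were seen, has its inner locus on chromosome 7 from 1389241 to 1390195, with 36.4, 79.8 and 56.4 FPKM in dek42 and 15.0 and 14.5 FPKM in WT (limma adjusted p = 0.0061). Its host from 1388810 to 1390530 had 49.5, 65.3 and 51.3 FPKM in dek42 and 16.1 and 21.6 FPKM in WT (limma adjusted p = 0.0029).

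The 2 outer loci that fell, also named after their values were seen, did so over inner loci that did not pass. On chromosome 1, the host from 229847654 to 229849510 had 25.2, 15.5 and 28.3 FPKM in dek42 and 57.8 and 49.8 FPKM in WT (limma log2 change -1.23, SE 0.26, adjusted p = 0.012; 0.057 without WT replicate 1). The inner locus, covering 92.9% of it, had 142, 123 and 106 FPKM in dek42 and 82.7 and 133 FPKM in WT (limma adjusted p = 0.45). On chromosome 4, the host from 30698429 to 30708673 had 3.81, 4.12 and 3.62 FPKM in dek42 and 8.95 and 8.04 FPKM in WT (limma log2 change -0.97, SE 0.18, adjusted p = 0.0085). Its inner locus of 384 bases overlapped between genotypes, with 2.28, 1.496 and 5.73 FPKM in dek42 and 7.06 and 0.840 FPKM in WT.

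Whether an inner locus changed by a different amount from its host was tested as a shift, the log2 change of the inner minus that of the outer locus. The fit (limma on the difference of log2(FPKM + 1), adjusted over 19715 pairs) covered the 181 nested and the 19534 neighbouring pairs, for which the shift is that of the shorter minus the longer locus. A library's scale factor largely cancels in this difference. The inner locus was raised against its host in 10 nested pairs (5.52%) and lowered in 4 (2.21%), against 7.50% raised and 4.95% lowered over all pairs, and 7.52% and 4.97% over the neighbouring pairs. The other 167 pairs passed in neither direction. The median size of the shift was 0.69 in nested and 0.53 in neighbouring pairs, and the median residual SD of the difference was 0.52 and 0.34, in the same order. All dek42 libraries lay above both WT libraries in inner minus outer level in 39 pairs (21.5%) and below in 32 (17.7%), against 27.8% and 21.5% over all pairs, and 27.8% and 21.6% over the neighbouring pairs. The numbers called depended on single libraries. Raised pairs numbered 4, 3 and 3 without dek42 replicate 1, 2 and 3, and 3 without WT replicate 1. Lowered pairs numbered 2 without dek42 replicate 2, 1 without WT replicate 1 and 7 without WT replicate 3.

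**Figure D4:**
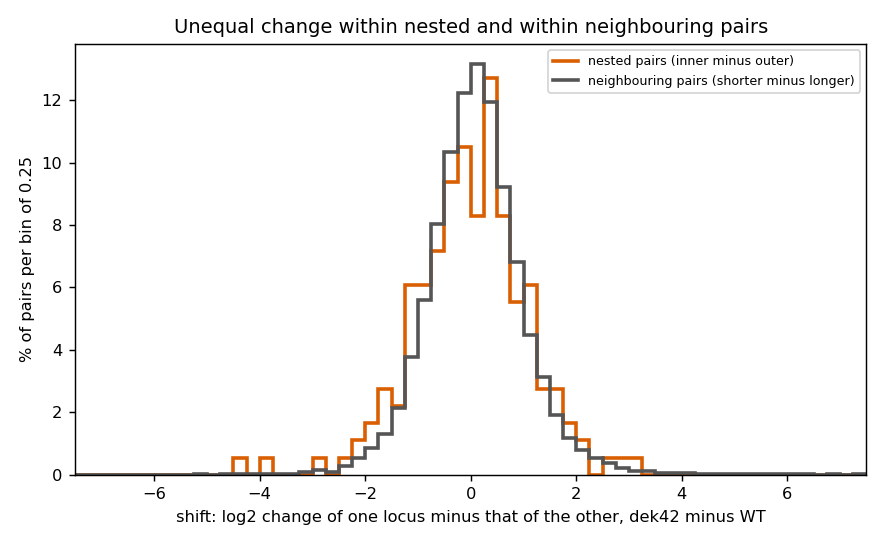
Share of pairs per bin of the shift, the log2 change of the inner (or shorter) minus that of the outer (or longer) locus in dek42 minus WT, for 181 nested and 19534 neighbouring pairs. Shifts past the ends of the axis are counted in the end bins. Both distributions centre near 0 (medians 0.03 and 0.08), and the median size of the shift is 0.69 in nested and 0.53 in neighbouring pairs.

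In 6 of the 10 raised pairs the inner locus, and in 2 others the host, passed the filter through dek42 alone. Of the 10, the inner locus rose alone in 8, both loci rose in 1, and neither passed alone in 1. Shifts ran from 1.29 to 3.03, inner changes from 1.22 to 3.53 and host changes from -0.38 to 1.06. By size, the first is on chromosome 10, where the inner locus from 149091260 to 149092049 had 18.3, 16.9 and 8.62 FPKM in dek42, and 0.671 FPKM in WT replicate 3 while listed at 0 in WT replicate 1, so it passed the filter through dek42 alone. Its host, from 149083647 to 149097057, had 5.39, 6.31 and 7.16 FPKM in dek42 and 3.54 and 4.77 FPKM in WT. The inner locus was the lower one in both WT libraries and the higher one in each dek42 library. The shift was 3.03 (SE 0.43, limma adjusted p = 0.015), and without WT replicate 1 it was 2.83 with an adjusted p of 0.063.

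On chromosome 1, the inner locus from 14608300 to 14608531 had 5.19, 12.2 and 8.12 FPKM in dek42 and is listed at 0 in both WT libraries. Its host, from 14606178 to 14611811, had 68.4, 77.2 and 68.0 FPKM in dek42 and 55.9 and 64.9 FPKM in WT, and was not called (limma adjusted p = 0.20). The shift was 2.95 (SE 0.34, limma adjusted p = 0.0095). On chromosome 5, the inner locus from 21424619 to 21424973 had 4.80, 7.31 and 5.13 FPKM in dek42 and is likewise listed at 0 in both WT libraries. The host there, from 21424282 to 21431659, had 3.23, 3.82 and 3.25 FPKM in dek42 and 4.03 and 2.57 FPKM in WT, which overlap. The shift was 2.67 (SE 0.29, limma adjusted p = 0.0088). Both inner loci passed the filter through dek42 alone, so these shifts are a description of loci chosen where they are high.

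The other 7 raised pairs fall outside the rule for naming. All but that with its inner locus on chromosome 8 from 15277251 are given here, chosen after their values were seen. On chromosome 2, the inner locus from 7733257 to 7735211 covers 89.9% of its host and had 42.8, 30.0 and 25.2 FPKM in dek42 and 5.18 and 4.43 FPKM in WT. The host there had 2.83, 1.81 and 0.487 FPKM in dek42 and 0.444 and 0.801 FPKM in WT, so the inner locus rose without overlap (limma adjusted p = 0.0017) and the host overlapped. That host passed the filter through dek42 alone. The shift was 1.86 (SE 0.36, limma adjusted p = 0.026) and was called in 0 of the 5 fits that left out a library.

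On chromosome 3, the inner locus from 166271466 to 166271734 had 4.17, 7.30 and 5.32 FPKM in dek42, is listed at 0 in both WT libraries and passed through dek42 alone. Its host had 6.29, 8.83 and 5.70 FPKM in dek42 and 4.40 and 3.05 FPKM in WT. The shift was 1.95 (SE 0.29, limma adjusted p = 0.016), called in 2 of the 5 such fits. On chromosome 1, the pair with both loci called has its inner locus from 162684496 to 162685108, with 19.5, 22.2 and 11.3 FPKM in dek42 and 0.163 and 2.18 FPKM in WT. Its host had 1.25, 1.48 and 0.638 FPKM in dek42 and is listed at 0 in both WT libraries, so it too passed through dek42 alone, and the shift was 2.17 (SE 0.48, limma adjusted p = 0.036; called in 1 of the 5 fits).

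Neither locus passed the filter through dek42 alone in the raised pair on chromosome 4. Its inner locus, from 220588 to 221098, had 17.3, 17.7 and 17.0 FPKM in dek42 and 5.79 and 2.48 FPKM in WT. The host of that pair had 46.6, 43.2 and 46.2 FPKM in dek42 and 37.8 and 40.4 FPKM in WT. Its shift was 1.71 (SE 0.33, limma adjusted p = 0.027), called in 2 of the 5 fits that left out a library. In the raised pair with neither locus called alone, the inner locus lies at 177663855 to 177665243 on chromosome 2. It had 4.10, 1.93 and 1.32 FPKM in dek42, and 0.958 FPKM in WT replicate 3 while listed at 0 in WT replicate 1. This inner locus passed the filter through dek42 alone. Its host had 9.48, 8.62 and 7.46 FPKM in dek42 and 8.58 and 14.8 FPKM in WT. The shift was 1.60 (SE 0.35, limma adjusted p = 0.036) and was called in 0 of the 5 fits that left out a library.

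In all 4 lowered pairs the inner locus fell. On chromosome 5, the inner locus from 15749618 to 15749859 had values above 0 but under 0.001 FPKM in dek42 replicates 1 and 2 and 4.48 FPKM in dek42 replicate 3, against 13.1 and 12.3 FPKM in WT. Its host, from 15749311 to 15754431, had 13.5, 22.5 and 12.03 FPKM in dek42 and 7.67 and 6.97 FPKM in WT. This was the only pair called in opposite directions: the inner locus fell (limma adjusted p = 0.020) and the host rose (log2 change 0.98, SE 0.27, limma adjusted p = 0.028). The shift was -3.94 (SE 0.91, limma adjusted p = 0.040). It was not called without dek42 replicate 1 (0.10), dek42 replicate 2 (0.086), WT replicate 1 (0.13) or WT replicate 3 (0.11), and the host's rise was lost without WT replicate 1 (0.080) or 3 (0.10) and after median-ratio scaling (limma adjusted p = 0.29). The fall of the inner locus was lost without dek42 replicate 1 (0.053) or 2 (0.057) and without WT replicate 1 (0.084) or 3 (0.076).

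On chromosome 8, the inner locus from 9828154 to 9828691 had 2.31, 0.574 and 0.339 FPKM in dek42 and 10.2 and 12.3 FPKM in WT, 10.5-fold lower in dek42 by mean FPKM. Its host of 23659 bases had 1.93, 1.64 and 2.33 FPKM in dek42 and 2.21 and 1.34 FPKM in WT. The shift was -2.79 (SE 0.49, limma adjusted p = 0.021), with adjusted p values of 0.065, 0.063, 0.063 and 0.071 without dek42 replicate 2, dek42 replicate 3, WT replicate 1 and WT replicate 3. The inner locus itself fell in each of these fits.

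On chromosome 3, the inner locus from 900766 to 901685 had 21.5, 24.95 and 35.3 FPKM in dek42 and 59.8 and 88.4 FPKM in WT, 2.72-fold lower in dek42. The host from 897636 to 901853 had 1.83, 2.11 and 2.23 FPKM in dek42 and 0.381 and 1.27 FPKM in WT, each dek42 library above both WT libraries though not called (limma adjusted p = 0.064). The shift was -2.20 (SE 0.30, limma adjusted p = 0.014; 0.054 without WT replicate 1). The fourth lowered pair, outside the rule for naming, is on chromosome 8 with the inner locus from 10002313 to 10006242. It had 0.476, 0.406 and 0.360 FPKM in dek42 and 3.85 and 3.39 FPKM in WT, and passed the filter through WT alone, while its host had 1.71, 1.28 and 1.43 FPKM in dek42 and 1.12 and 0.566 FPKM in WT. The shift of this pair is therefore a description of an inner locus chosen where it is high. The shift was -2.14 (SE 0.29, limma adjusted p = 0.013), and it was called in 3 of the 5 fits that left out a library, with the highest adjusted p, 0.051, without dek42 replicate 3.

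**Figure D5:**
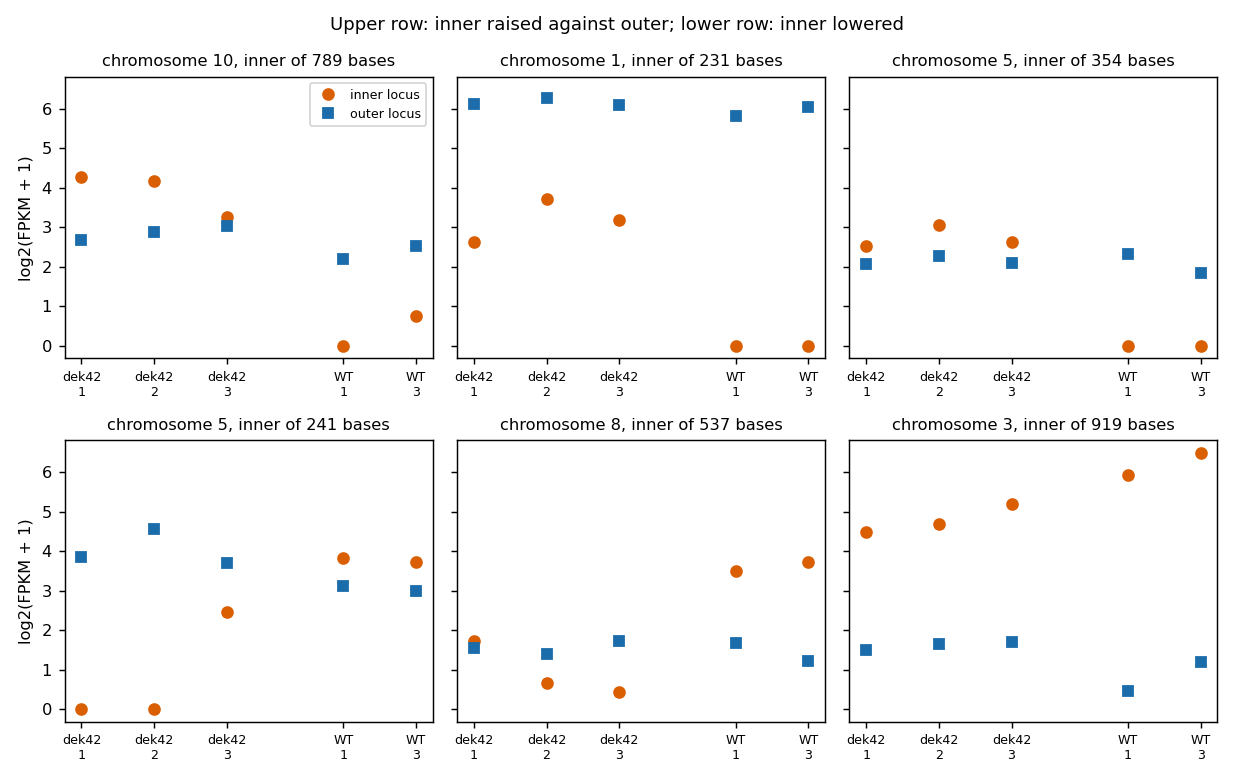
FPKM of the inner (circles) and outer (squares) locus in every library, as log2(FPKM + 1), with dek42 libraries left of WT libraries. Among called shifts with a locus at 5 FPKM or more, the 3 largest raised (upper row) and the 3 largest lowered (lower row) are shown. In the upper row the inner locus is at or near 0 in WT, and in the lower row it is highest in WT.

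In 6 pairs the more abundant locus of the pair differed between the genotypes in every library. Such a switch was not counted in neighbouring pairs, so the number is a description without a background. The inner locus was above its host in all dek42 libraries and below it in both WT libraries in 4 pairs: those on chromosomes 10 and 5 given above, and 2 more on chromosome 5. Of these 2, the inner locus from 213495788 to 213498656 had 29.3, 22.8 and 31.1 FPKM in dek42 and 12.99 and 14.6 FPKM in WT, and rose as deposited (limma adjusted p = 0.0085; 0.25 after median-ratio scaling). Its host, the longest kept, had 24.3, 21.5 and 25.6 FPKM in dek42 and 25.5 and 16.5 FPKM in WT, and was not called. The other, named after its values were seen, is the inner locus from 216826281 to 216826613, with 3.06, 1.71 and 4.99 FPKM in dek42 and 0.684 FPKM in WT replicate 3, listed at 0 in WT replicate 1. Passing the filter through dek42 alone, it was called as deposited (limma adjusted p = 0.020), without a call after median-ratio scaling (0.072). In neither was the shift called (limma adjusted p = 0.11 and 0.13). The reverse order, inner below in dek42 and above in WT, held in 2 pairs, the lowered pairs on chromosome 5 and on chromosome 8 from 10002313. The inner loci on chromosome 10 from 149091260 and on chromosome 5 from 21424619 also passed the filter through dek42 alone. That on chromosome 8 from 10002313 passed through WT alone. For inner loci that passed through a single genotype, the order is in part set by the filter.

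Only 3 outer loci held 2 kept inner loci. On chromosome 4, the host from 235753191 to 235761802 had 3.90, 5.86 and 2.08 FPKM in dek42 and values under 0.001 FPKM in both WT libraries (limma adjusted p = 0.0055), and passed the filter through dek42 alone. Its inner loci, which overlap each other, had 79.2, 124 and 107 FPKM (462 bases) and 17.6, 34.3 and 32.9 FPKM (1603 bases) in dek42. In WT they had 61.9 and 35.7 FPKM (462 bases) and 11.2 and 13.2 FPKM (1603 bases). Both rose as deposited (limma adjusted p = 0.022 and 0.027), and neither after median-ratio scaling (0.23 each). The first call was lost without dek42 replicate 2 or 3 or WT replicate 3 (0.065, 0.063 and 0.090), and the second without dek42 replicate 2 or 3 or WT replicate 1 or 3 (0.074, 0.078, 0.11 and 0.068).

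On chromosome 2, the host from 46044804 to 46059398 had 20.8, 15.3 and 15.998 FPKM in dek42 and 6.33 and 10.6 FPKM in WT and rose (limma log2 change 0.98, SE 0.24, adjusted p = 0.021). That call was lost without dek42 replicate 1 (0.055), dek42 replicate 3 (0.052) or WT replicate 1 (0.081) and after median-ratio scaling (0.34). Neither of its inner loci passed: that of 1511 bases had 0.621, 1.30 and 0.594 FPKM in dek42 and 1.40 and 1.19 FPKM in WT, and that of 1260 bases 4.13, 5.73 and 4.15 FPKM in dek42 and 1.59 and 3.62 FPKM in WT.

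The chromosome 10 stretch from 146324019 to 146327524 held a nest of 3 loci, the only such case: an outer locus of 3505 bases, within it a locus of 745 bases, and within that a locus of 714 bases. The outer locus had 3.78, 5.51 and 3.77 FPKM in dek42 and 4.96 and 2.78 FPKM in WT. The locus of 745 bases had 10.6, 4.96 and 6.42 FPKM in dek42, and in WT 3.24 FPKM in replicate 3 and under 0.001 FPKM in replicate 1. That of 714 bases, which covers 95.8% of it, had 1.83, 0.889 and 3.55 FPKM in dek42 and 2.83 and 0.509 FPKM in WT. In WT replicate 1 the smallest locus had signal while the one around it had almost none, and in WT replicate 3 the order was the opposite. Of the 3, the locus of 745 bases alone was called higher (limma adjusted p = 0.040), and the call was lost without dek42 replicate 1 (0.10), 2 (0.064) or 3 (0.083), without WT replicate 1 (0.14) and after median-ratio scaling (0.16).

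The second longest host, on chromosome 2 from 17710876 to 17738889, had 3.45, 8.10 and 4.47 FPKM in dek42 and 3.58 and 3.50 FPKM in WT. Its inner locus of 1725 bases had 0.733, 0.381 and 1.72 FPKM in dek42, and 1.07 FPKM in WT replicate 3 with a value above 0 but under 0.001 FPKM in WT replicate 1. The genotypes overlapped at both loci, and neither was called (limma adjusted p = 0.50 for the inner and 0.32 for the outer locus).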

How the data were processed

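The authors deposited FPKM values, 1 file per library, per the file headers. Per the submitters' processing notes the tools were TopHat2 2.1.0 and Cufflinks 2.2.1 and the build B73 RefGen_v4; their settings are not stated. Each of the 5 files lists 45764 rows, and 14 spans that occur in 2 rows each, all at 0, were left out. Coordinates are printed as in the files, which do not say whether starts count from 0 or 1, and spans are end minus start. Read totals are not given, so depth is unknown and FPKM carries no counting interval.

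Values were tested with limma 3.58.1 in R 4.3.3 (lmFit, eBayes with a mean-variance trend, genotype as the only term) on log2(FPKM + 1) for the 20327 loci that reached 1 FPKM in 2 or more libraries. Fold changes on this scale understate the change of low loci, and "fold" in the text is a ratio of mean FPKM. For pairs, the difference of both log2 values was fitted with the mean level of the lower locus as trend. Both fits were tested on simulated data. Pairs were named by rule: the 3 largest called shifts each way with a locus at 5 FPKM or more, the 3 most abundant inner and outer loci, opposite calls, the 2 largest joint calls each way, the 2 highest and lowest level differences, hosts with several inner loci, and pairs at the span limit. The members, lists and rule were chosen with earlier results of these data known. Alternatives were other pseudocounts, filters, scalings, variance models, a replicate block, subsets of pairs and leaving out each library, with the tested loci and pairs kept as in the full set.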

Additional observations from a re-analysis of the deposited data

How the results depend on the processing

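Counts of called loci depended on scaling. Against 62 inner and 69 outer loci higher, median-ratio scaling gave 24 and 12 and quantile normalization 22 and 12, and both gave 8 outer loci lower against 2. With no filter beyond a value above 0 (633 pairs), 117 outer loci were higher and 6 lower, 18 pairs were raised and 28 lowered against 10 and 4, and the median inner minus outer level was -1.15 against -0.58. At 5 FPKM in 2 libraries (60 pairs) these were 27 inner and 34 outer loci higher, 1 inner locus lower, and -0.25. The level difference was -0.93 and -0.72 with pseudocounts of 0.1 and 0.5. With outer spans of at most 10000 bases (132 pairs) it was -0.32, and 1 outer locus was lower. With inner loci covering at most 50% of the host (145 pairs), 1 outer locus was lower. Leaving out a library gave 42 to 55 inner and 34 to 55 outer loci higher, 4 to 9 inner and 2 to 3 outer loci lower, 3 to 10 pairs raised, 1 to 7 lowered and a level difference of -0.63 to -0.47; the spread of a lone WT library is then taken from dek42. The cause of these differences was not tested.

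Replicate numbers 1 and 3 occur in both genotypes, but deviations of same-numbered libraries correlated with r = 0.0057 and -0.015 across loci, and no label ties them. With a replicate block, 34 outer loci were higher and 0 pairs were raised or lowered (limma, 1 residual degree of freedom; lowest adjusted p 0.058; 22 raised and 18 lowered at an unadjusted p under 0.05). The loci and pairs named by rule that passed were 26 results in all, and none changed direction under any alternative run. Of their values, 260 stayed past the threshold and 73 did not. Loci and pairs given outside the rule for naming are not in this tally. These results were chosen because they passed, the alternatives reuse the same libraries, and some loci passed the filter through dek42 alone. The kept directions are therefore a description and no independent support.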

Other observations

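The 2 pairs with a lowered inner locus on chromosome 8 lie close together, a pattern noticed after the values were seen. Their inner loci are 173622 bases apart. The stretch from 9807194 to 10008150 that holds both pairs lists 10 loci, of which 5 were tested. The 2 inner loci fell in dek42, 0 loci rose and the other 3, among them both hosts, were not called (limma, as deposited), against 39.2% higher and 2.29% lower over all loci tested. The stretch was chosen for these calls, so its counts are a description.

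The inner locus with the steepest fall in the model, on chromosome 2 from 184488714 to 184489018, was not among the called shifts. It had 9.99 and 12.7 FPKM in dek42 replicates 1 and 2, is listed at 0 in dek42 replicate 3, and had 120 and 47.8 FPKM in WT (limma log2 change -3.86, SE 1.10, adjusted p = 0.031; called in 3 of the 5 fits that left out a library, with 0.15 without WT replicate 1). Its host had 1.70, 2.097 and 4.002 FPKM in dek42 and 2.29 and 0.882 FPKM in WT, and the shift was -4.34 (SE 1.31, limma adjusted p = 0.077).

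Summed over all kept inner loci, FPKM was 9142, 10570 and 7969 in dek42 and 7468 and 13748 in WT. The highest sum, in WT replicate 3, goes with the 10947 FPKM of the 174-base locus on chromosome 2 in that library. Summed over the outer loci, FPKM as deposited was 4429, 4838 and 4598 in dek42 and 2975 and 3183 in WT, without overlap. That was 0.303%, 0.328% and 0.368% of the FPKM of all loci in dek42 and 0.228% and 0.284% in WT. The factors of the median-ratio scaling were 1.12, 1.26 and 1.22 in dek42 and 0.786 and 0.760 in WT. The sums were not recomputed on that scale, so the difference between the sums cannot be told apart from one of scale shared by all loci. Dividing a library by its factor leaves its shares of FPKM as they are.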
